A study of Schmidtea mediterranea with 12 samples.

Results

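Transcripts for 4 predicted carboxylate and bile acid transporters were followed in laser-captured tissue of the planarian flatworm Schmidtea mediterranea. They were chosen by name from a table of 28069 transcripts. SLC16A9 (dd_Smed_v6_10656_0_1, 1377 bases) and SLC16A12 (dd_Smed_v6_12311_0_1, 1465 bases) are predicted monocarboxylate transporters. SLC13A3 (dd_Smed_v6_1171_0_1, 1896 bases) is a predicted sodium-coupled dicarboxylate transporter, and slc10a2 (dd_Smed_v6_11330_0_1, 1705 bases) a predicted sodium-coupled bile acid transporter. Names in capitals are best matches to human proteins and not proof of function. The match of dd_10656 to its human namesake is weak, and a second homology search placed dd_1171 nearest to the human citrate transporter SLC13A5 and dd_12311 nearest to SLC16A14. The 4 transcripts come from a list that was made because its members were enriched in the intestine in these same libraries, so that their direction against non-intestine is not independent evidence.

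There were 12 libraries, with medial intestine, lateral intestine and non-intestine each captured 4 times. Each replicate number is 1 uninjured adult, so that the libraries numbered 1 to 4 pair the tissues within an animal. All animals were asexual planarians of the clonal line CIW4, 6 to 9 mm long, starved for 7 days and free of any transgene or treatment in the labels. Tissue in front of the pharynx was cut by laser from methacarn-fixed, eosin-stained sections of 20 µm, pooled over sections of the same animal, and sequenced from 5 ng of RNA by a method that reads the 3′ ends of mRNA. Medial intestine is the primary gut branch near the midline, and lateral intestine its side branches. Being 1 clonal line, the animals do not sample genetic variation.

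Some solute carriers of the SLC16 family move lactate, pyruvate and related small acids across membranes in vertebrates, and others carry different substrates. Several SLC13 carriers import intermediates of the citric acid cycle, such as succinate and citrate, with sodium. SLC10 carriers include the ileal protein that recovers bile acids from the human gut lumen and the liver protein that takes them up from blood. The planarian intestine, which digests food and distributes nutrients along its branches, is built of absorptive phagocytes, secretory goblet cells and basal cells at its outer face.

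Of the 4 transporter transcripts, 3 were called higher in medial intestine than in non-intestine and all 4 in lateral intestine, with no member called between medial and lateral intestine. With the animal as a block, 2 were called in medial and 4 in lateral intestine. The counts also fell with the scaling, to 2 and 3 with RLE size factors and to 2 and 2 with library size alone. Of all transcripts tested, 12.8% were called higher in medial and 11.7% in lateral intestine, and 0.129% were called higher and 0.16% lower in medial than in lateral intestine (21 lower, or 13 with the animal as a block). Of the 4, SLC13A3 had the highest level in intestine and the largest fold, at 105 times the non-intestinal level in medial and 97.1 times in lateral intestine. SLC16A9 followed at 15.7 and 14.0 times. SLC16A12 and slc10a2 differed less, by 2.67 to 4.03 times, and their calls depended on single libraries. A call is an FDR under 0.01 in edgeR's quasi-likelihood test with Benjamini-Hochberg adjustment over 13136 tested transcripts, with a fold change above 2 against non-intestine or above 1.5 between medial and lateral intestine. Levels are CPM, read counts scaled to a common library size, here adjusted by TMM, a method that allows for differences in RNA composition.

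Library totals ran from 20227187 to 33296270 counts, with a median of 25025959. The TMM factors were 0.765 to 0.923 in medial, 0.794 to 0.985 in lateral and 1.21 to 1.496 in non-intestinal libraries, and so moved with the comparison. Fold changes are given relative to them, and scaling by library size alone lowered the median of all transcripts by 0.70 (medial) and 0.65 (lateral) on the log2 scale. The labelled tissues bore their markers. The summed CPM of 5 phagocyte markers was 5007 to 7807 in medial, 5110 to 6052 in lateral and 132 to 148 in non-intestinal libraries. The 4 goblet markers summed to 10773 to 18631 in medial, 18464 to 20635 in lateral and 189.9 to 323 CPM in non-intestinal libraries, and the 3 basal markers to 15167 to 22470, 16764 to 28839 and 624 to 970.4 CPM in the same order. All 12 markers were called higher in both intestinal tissues and none was at 0 in non-intestine. Markers among them, such as cg7631 and eppin, were picked from transcripts that the study found enriched in these same libraries. Their direction is therefore not independent evidence for the labels. Homologs of human brain-enriched genes (8 of 9 tested) summed to 193 to 253.99 CPM in medial, 159 to 262 in lateral and 189 to 309 in non-intestinal libraries, with no call in either comparison by edgeR (0 in medial and 1 in lateral intestine at an unadjusted p under 0.05), and 1 lower in lateral intestine by DESeq2. DIRAS2 of that list had no count in any intestinal library. GAD1 and RAB3A of the same list lay above non-intestine without a call. Their log2 fold changes were 0.55 and 0.24 in medial and 0.37 and 0.18 in lateral intestine. The median of the 8 tested was −1.02 in medial and −0.76 in lateral intestine. Homologs of skeletal muscle genes (6 tested) summed to 279.3 to 340.4, 298 to 381 and 352 to 398 CPM, with MYOD1 called lower in lateral intestine, where it had no count. PGAM2 of that list was at 0.511 of the non-intestinal level in medial and 0.5004 in lateral intestine (FDR 0.000124 and 0.00011 by edgeR), short of the fold threshold, and was called lower in both with RLE scaling, library size alone or DESeq2. LDB3 was also lower, at −1.67 and −1.27 on the log2 scale, without a call. CLCN1, PYGM and PFKM went the other way, at 0.42, 0.32 and 0.02 in medial and 1.05, 0.32 and 0.24 in lateral intestine, also uncalled. All 3 intestinal marker sums rose with the transporters from non-intestine to intestine, and their part in the results was not tested. Between the intestinal regions the goblet markers cg7631 and rpz4 were called higher in medial intestine. The goblet markers eppin and spint3 were called lower there, whereas no transporter was called. In captured bulk tissue, fewer cells of a type and less RNA per cell cannot be told apart.

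The human namesake of SLC16A9 has been linked to carnitine transport. The planarian transcript had 40.8, 21.4, 27.4 and 51.8 CPM in the medial intestine of animals 1 to 4. It had 24.3, 32.6, 32.3 and 36.8 CPM in lateral intestine, against 2.62, 1.71, 3.32 and 1.35 CPM in non-intestine. Every intestinal library lay above every non-intestinal library, as it did for 18.4% (medial) and 18.7% (lateral) of tested transcripts. The means were 35.3 ± 13.7 CPM in medial, 31.5 ± 5.24 in lateral and 2.25 ± 0.893 in non-intestinal tissue (SD, n = 4 each). The log2 fold change was 3.97 ± 0.36 (SE) in medial intestine, or 15.7-fold with a 95% interval of 9.19 to 26.8, at an FDR of 1.33e-06 by edgeR. In lateral intestine it was 3.81 ± 0.36, or 14.0-fold (8.22 to 23.8), at an FDR of 2.19e-06 by edgeR. Within animals the medial level was 8.24 to 38.5 times the non-intestinal level and the lateral level 9.26 to 27.3 times, with animal 4 the highest in both.

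SLC16A12, whose human namesake carries creatine, had lower values. It had 11.3, 12.1, 5.88 and 4.92 CPM in the medial intestine of animals 1 to 4 and 4.84, 16.4, 7.47 and 12.4 CPM in lateral intestine. It had 2.42, 3.23, 2.93 and 1.58 CPM in non-intestine. The groups did not overlap, but the lowest intestinal libraries, animal 4 in medial and animal 1 in lateral intestine, lay near the highest non-intestinal one, animal 2. Medial intestine averaged 8.56 ± 3.68 CPM, lateral intestine 10.3 ± 5.14 and non-intestine 2.54 ± 0.721 (SD, n = 4 each). The difference was 1.75 ± 0.46 (log2, SE) in medial intestine, or 3.36-fold (95% interval 1.68 to 6.71), at an FDR of 0.0087 by edgeR, and 2.01 ± 0.47 in lateral intestine, or 4.03-fold (2.01 to 8.08), at an FDR of 0.00432 by edgeR. With the animal as a block the medial difference was 1.71 at an FDR of 0.0143 by edgeR and lost its call. The medial call was also lost in 13 of 16 fits that left out an animal or a library and held in 5 of all 23 alternatives. The lateral call held in 13 of 23.

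SLC13A3 stood apart from the others. Its human namesake takes up succinate and other dicarboxylates in kidney, placenta and brain. It had 299, 233, 134 and 241 CPM in the medial intestine of animals 1 to 4, 148, 249.8, 225 and 217 CPM in lateral intestine, and 2.29, 2.27, 2.28 and 1.79 CPM in non-intestine. The lowest intestinal library, medial intestine of animal 3, thus still held 2115 counts, against 53 to 94 counts in the non-intestinal libraries. The means were 227 ± 68.5 CPM in medial, 209.9 ± 43.8 in lateral and 2.16 ± 0.247 in non-intestinal tissue (SD, n = 4 each). The log2 fold change was 6.71 ± 0.30 (SE) in medial intestine, with 95% bounds of 67.4- and 163-fold, at an FDR of 1.63e-09 by edgeR. It was 6.60 ± 0.29 in lateral intestine, with bounds of 62.5- and 151-fold, at an FDR of 1.95e-09 by edgeR. Among 13136 tested transcripts its fitted fold change ranked 77 in medial and 76 in lateral intestine. Within animals the medial level was 58.7 to 135 times and the lateral level 64.4 to 122 times that of non-intestine.

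The bile acid transporter homolog slc10a2 was present in all 3 tissues. Its human namesake sits in the apical membrane of ileal enterocytes. It had 8.51, 9.14, 12.7 and 4.04 CPM in the medial intestine of animals 1 to 4 and 5.34, 9.96, 18.8 and 11.3 CPM in lateral intestine. It had 4.28, 2.87, 4.04 and 1.65 CPM in non-intestine. Medial intestine of animal 4 lay below non-intestine of animal 1, so those groups overlapped, while every lateral library lay above every non-intestinal library. The means were 8.59 ± 3.54 CPM in medial, 11.4 ± 5.60 in lateral and 3.21 ± 1.21 in non-intestinal tissue (SD, n = 4 each). The medial difference of 1.42 ± 0.47 (log2, SE; 2.67-fold, 95% interval 1.32 to 5.38) was positive in 4 of 4 animals but missed the threshold, at an FDR of 0.0292 by edgeR. With library size alone it was 0.65. The lateral difference of 1.82 ± 0.47 (3.54-fold, 1.74 to 7.18) passed at an FDR of 0.0089 by edgeR, and was positive in 4 of 4 animals with TMM factors. With library size alone it was 1.13 and animal 1 turned, at 4.24 CPM in lateral intestine, against 6.38 CPM in non-intestine. That call was lost in 13 of 16 fits that left out an animal or a library, and held in 7 of all 23 alternatives. The difference between the intestinal regions themselves was not called: medial over lateral was −0.41 on the log2 scale, with an FDR of 0.968 by edgeR.

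**Figure D1:**
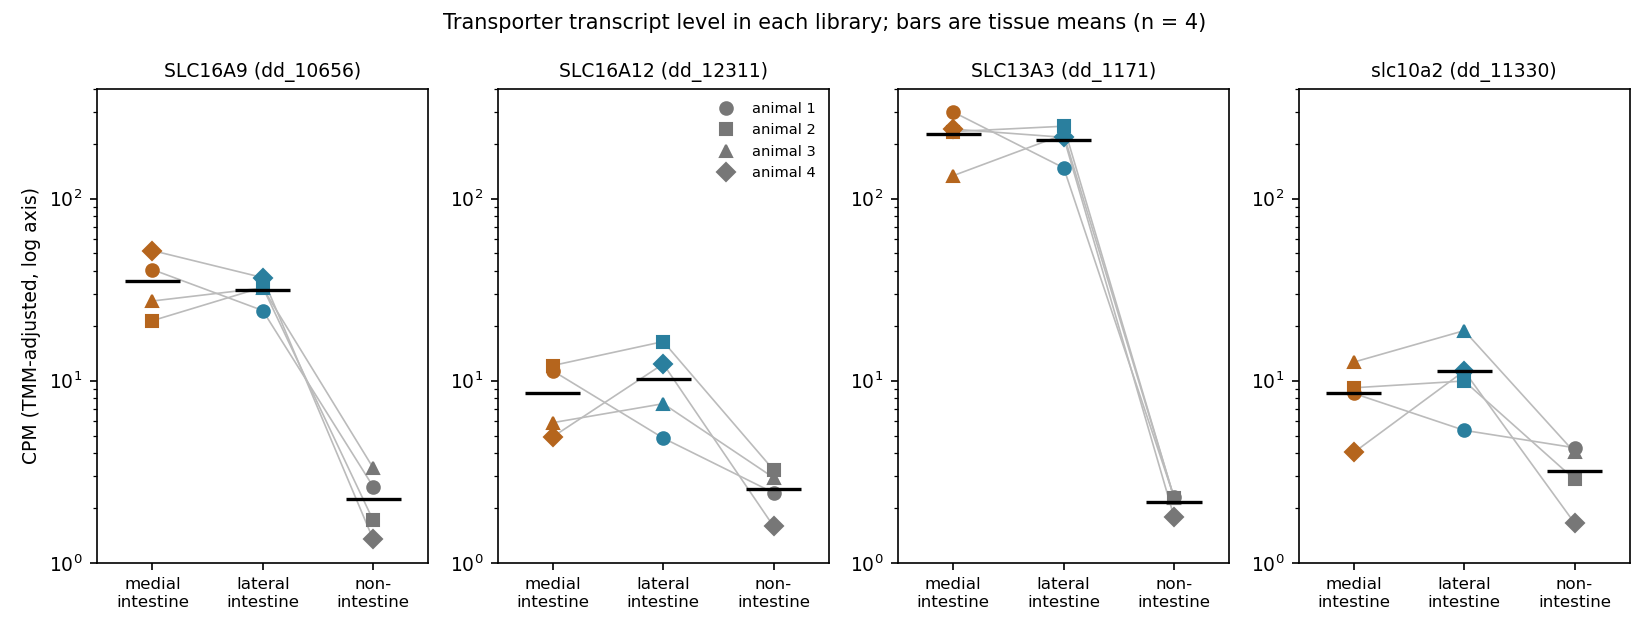
CPM at TMM-adjusted library sizes (log axis) of each transporter in medial intestine, lateral intestine and non-intestine. Symbols are the animals, grey lines join the tissues of an animal and black bars are means (n = 4); SLC13A3 lies between 134 and 299 CPM in intestine and near 2 CPM outside it, whereas slc10a2 in medial intestine and non-intestine overlaps.

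Between the intestinal regions no transporter differed beyond the spread of the animals, with 0 of 4 called and 0 at an unadjusted p under 0.05 by edgeR's quasi-likelihood test, and 0 called by its likelihood ratio test or by DESeq2. SLC16A9 gave a medial over lateral log2 fold change of 0.17 (95% interval −0.51 to 0.84, FDR 0.99 by edgeR), with a higher medial value in 2 of 4 animals. SLC13A3 gave 0.11 (−0.38 to 0.60, FDR 0.995 by edgeR), also with 2 of 4. SLC16A12 gave −0.26 (−1.23 to 0.71, FDR 0.989 by edgeR), and slc10a2 −0.41 (−1.40 to 0.58), each higher in medial intestine in 1 of 4 animals. These intervals leave room for differences of up to 1.80 times for SLC16A9 and 1.52 times for SLC13A3 in favour of medial intestine, and for medial levels as low as 0.427 of lateral ones for SLC16A12 and 0.38 for slc10a2. In animal 1 all 4 transcripts were higher in medial intestine, by 1.59 to 2.34 times. In animal 3 all 4 were lower there, at 0.595 to 0.848 of the lateral level. The 4 ratios of an animal come from the same pair of libraries and are not separate evidence.

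**Figure D2:**
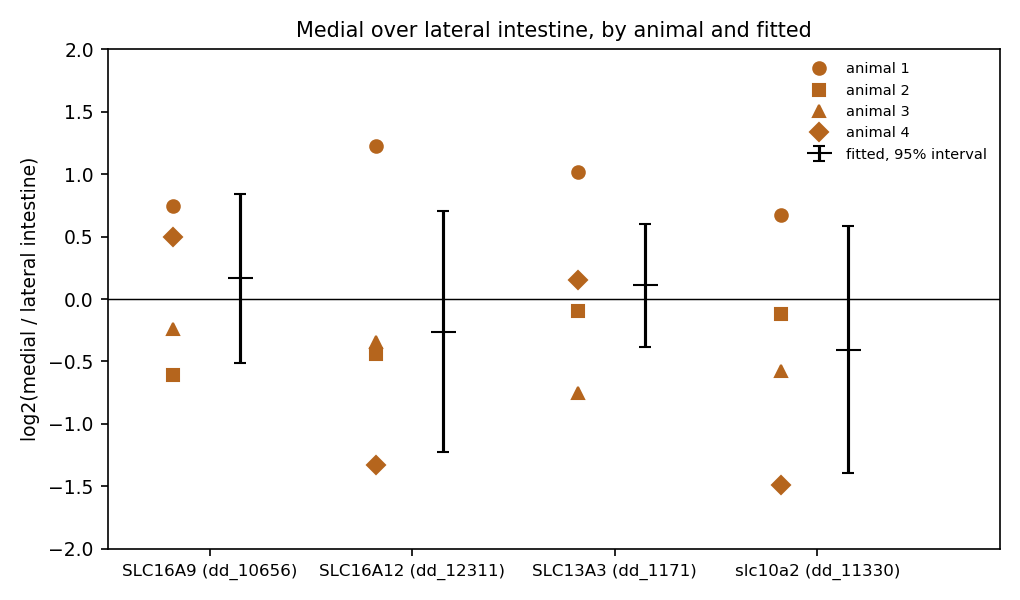
Log2 ratio of medial over lateral intestine for each transporter, by animal (symbols) and as fitted over all animals (bar with 95% interval). Animal 1 is above 0 and animal 3 below 0 for all 4 transcripts, and each fitted interval includes 0.

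Levels of different transcripts were compared by the deposited TPM, which divide by transcript length and sum to the same total in each library. Reads from 3′ ends do not grow with length, so that TPM may understate long transcripts. SLC13A3 averaged 87.6 ± 29.7 TPM in medial, 85.3 ± 20.4 in lateral and 1.78 ± 0.302 in non-intestinal tissue (SD, n = 4 each), above 94.2%, 94.0% and 14.8% of the 13136 transcripts. It gave 69.3 to 80.9% of the TPM of the 4 transporters in medial, 73.3 to 76.4% in lateral and 15.1 to 23.7% in non-intestinal libraries. SLC16A9 averaged 18.6 ± 7.21 TPM in medial, 17.6 ± 2.93 in lateral and 2.59 ± 1.13 in non-intestinal tissue, and thus was the second most abundant in intestine. SLC16A12 averaged 4.30 ± 2.05, 5.46 ± 3.00 and 2.72 ± 0.806 TPM, and slc10a2 3.63 ± 1.39, 5.07 ± 2.33 and 2.99 ± 1.29 TPM, in the same order of tissues. In each tissue the SDs of these 2 were larger than the gap between their means, and that gap was not tested. SLC13A3 was the lowest of the 4 by mean TPM in non-intestine. TPM carry no TMM factor: on this scale the intestinal and non-intestinal ranges of SLC16A12 and slc10a2 overlapped in both comparisons, while those of SLC13A3 and SLC16A9 did not. By TPM, slc10a2 was higher in medial intestine than in non-intestine in 3 of 4 animals and in lateral intestine in 3 of 4, with animal 1 lower in both, and SLC16A12 was also higher in 3 of 4 in each, with animal 3 lower in medial and animal 1 in lateral intestine.

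Other transcripts with the same family names were examined next. Of relatives with no intestine criterion (13 listed, 9 tested), 2 were called higher and 0 lower in medial intestine, and 1 higher and 1 lower in lateral intestine. Over all tested transcripts 12.8% were called higher and 11.5% lower in medial intestine, and 11.7% higher and 8.75% lower in lateral intestine. The median log2 fold change of these relatives was −0.21 in medial and −0.08 in lateral intestine, beside −0.17 and −0.12 over all tested transcripts. None was called between the intestinal regions by edgeR or DESeq2, with 0 at an unadjusted p under 0.05. The homology tables behind this list were held only in part, so that it is not the whole family. The transporters and the relatives on the study's intestine-enriched list were also kept apart from it. Its medians therefore do not describe the family as a whole.

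A relative of the dicarboxylate carriers, SLC13A2 (dd_12964), had 3.96, 3.67, 3.10 and 8.47 CPM in medial intestine and 5.89, 4.46, 5.59 and 5.40 CPM in lateral intestine of animals 1 to 4. It had 0, 0.386, 0.619 and 0.202 CPM in non-intestine. It rose by 3.96 ± 0.87 in medial (FDR 0.0026 by edgeR) and 4.12 ± 0.87 in lateral intestine (log2, SE; FDR 0.00241 by edgeR). A second SLC16A9 match (dd_10829) rose by 1.75 ± 0.37 in medial intestine (FDR 0.00206 by edgeR) and was 1.22 ± 0.36 in lateral intestine (FDR 0.0201 by edgeR), where it was not called. With library size alone its medial call was lost, and by the likelihood ratio test it was also called in lateral intestine. SLC16A12 (dd_11486) went the other way. It had 4 counts in medial intestine, all in animal 2, none in lateral intestine and 475 in non-intestine, where each library held 40 to 185. Lateral intestine was at least 113-fold lower, taking 3 counts over the 4 lateral libraries as the floor, and was called lower at an FDR of 0.00276 by edgeR. Medial intestine was 61.7-fold lower in the fit (95% interval 5.85 to 651) and missed the threshold at an FDR of 0.0107 by edgeR, but was called lower with RLE scaling, library size alone, the likelihood ratio test or DESeq2.

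The other relatives of this group were not called in either comparison with non-intestine. SLC10A1 (dd_12999), named for the liver bile acid carrier, averaged 2.48 ± 2.29 CPM in medial, 0.886 ± 0.612 in lateral and 2.88 ± 0.502 in non-intestinal tissue (SD, n = 4 each). SLC16A14 (dd_1284) averaged 246 ± 27.0, 231 ± 58.9 and 161 ± 38.9 CPM in the same order. Below the filter, SLC10A6 (dd_10199) had 3 counts in medial, 1 in lateral and 218 in non-intestinal tissue, and SLC5A8 (dd_14173), a sodium-coupled monocarboxylate carrier in vertebrates, averaged 0.408 ± 0.513, 1.12 ± 1.44 and 0.057 ± 0.114 CPM in the same order (SD, n = 4 each). SLC16A14 (dd_102379) and SLC13A5 (dd_104282) had no count in any library.

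A further 8 relatives stood on the study's list of intestine-enriched carriers, which was drawn from these samples and therefore fixes their direction. In medial intestine 8 of 8 were called higher and in lateral intestine 7 of 8, with median log2 fold changes of 3.29 and 3.47. The medial count was 7 with RLE scaling, library size alone or DESeq2, each without SLC16A4 (dd_7474), and the lateral count 6 with library size alone, without SLC16A14 (dd_4694). None was called between medial and lateral intestine by edgeR or DESeq2, with 0 at an unadjusted p under 0.05. The second SLC13A3 match (dd_5476) had 47.5, 63.2, 90.2 and 51.2 CPM in medial, 77.7, 59.4, 52.3 and 92.7 in lateral intestine and 2.92, 2.53, 4.56 and 4.95 in non-intestine of animals 1 to 4. Per length it averaged 22.6 TPM in medial, 27.0 in lateral and 2.88 in non-intestinal tissue, below dd_1171 in intestine and above it in non-intestine. Of 4 transcripts matched to SLC16A12 among the transporters and this list, dd_12311 was the least abundant in intestine. Its 4.30 TPM in medial and 5.46 in lateral intestine compare with 104 and 95.8 TPM for dd_4634, 21.9 and 22.7 for dd_3252, and 12.7 and 13.8 for dd_7075. Near-identical transcripts could share reads, and how such reads were divided was not tested.

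**Figure D3:**
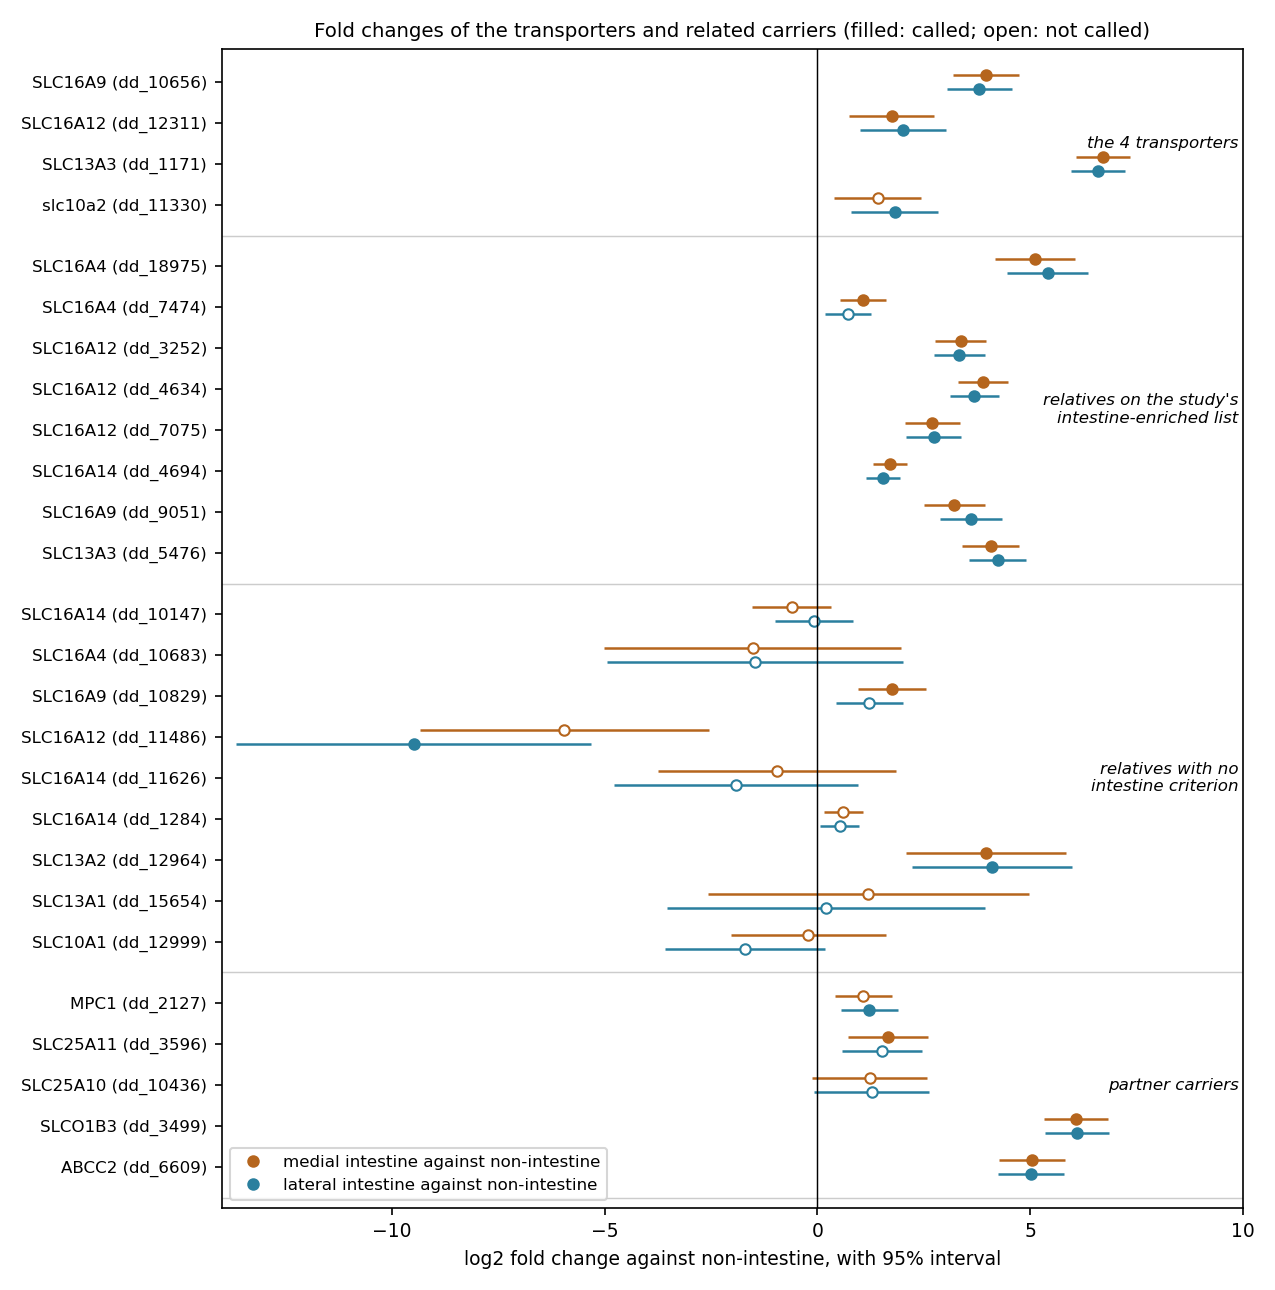
Log2 fold change with 95% interval against non-intestine, for medial and lateral intestine, of the 4 transporters, relatives and partner carriers that passed the filter; filled points are called. The 4 transporters lie between 1.42 and 6.71, and the fitted value of dd_11486 in lateral intestine, where no library holds a count, is set by the prior count and is no bound.

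Carriers that handle the same kinds of acid inside the cell or at other membranes formed a list of 5, chosen with earlier results of these data known. Of these, 3 were called higher in each intestinal tissue, beside 12.8% (medial) and 11.7% (lateral) of all tested transcripts. None was called between the intestinal tissues by edgeR or DESeq2, with 0 at an unadjusted p under 0.05. With library size alone or RLE scaling, another way to set size factors, 2 were called in each, and by the likelihood ratio test 4 in each, with SLC25A11 and MPC1 called in both. SLCO1B3, a liver importer of bile acids and other organic anions in human, averaged 63.1 ± 17.1 CPM in medial, 63.4 ± 10.2 in lateral and 0.923 ± 0.444 in non-intestinal tissue (SD, n = 4 each), a log2 difference of 6.09 ± 0.35 (FDR 1.75e-08 by edgeR) in medial and 6.10 ± 0.35 (FDR 1.91e-08 by edgeR) in lateral intestine. ABCC2, a pump that exports conjugated organic anions into human bile, averaged 100.8 ± 44.6, 99.5 ± 12.2 and 3.05 ± 1.06 CPM in the same order and was called higher in both. The mitochondrial oxoglutarate carrier SLC25A11 was called in medial intestine at 1.66 ± 0.44 (FDR 0.00863 by edgeR) and not in lateral intestine at 1.53 ± 0.44 (FDR 0.0159 by edgeR). The pyruvate carrier subunit MPC1 was called in lateral intestine at 1.22 ± 0.31 (FDR 0.00804 by edgeR) and not in medial intestine at 1.08 ± 0.31 (FDR 0.0143 by edgeR). The dicarboxylate carrier SLC25A10 was at 1.23 ± 0.62 and 1.28 ± 0.63, called in neither.

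Across the 12 libraries the 4 transporters moved together, with Pearson correlations of log2 CPM of 0.77 to 0.98. The points share libraries and fall into an intestinal and a non-intestinal cluster, so that these values describe mainly that gap. Within the 8 intestinal libraries the correlation was 0.52 between SLC16A9 and SLC13A3, 0.61 between SLC16A12 and SLC13A3, 0.41 between SLC16A12 and slc10a2, and −0.28 to −0.02 for the other pairs. By the same measure over 12 libraries, the transcripts most like SLC16A9 were dd_1840 (ATP6AP1, r = 0.995), dd_2230 (ATP1B2, 0.995) and dd_1504 (CHP1, 0.994). Those most like SLC13A3 included dd_2604 (0.997) and dd_452 (TUBA1A, 0.996). SLC16A12 was most like dd_1670 (NDE1, 0.956), dd_3212 (EFR3B, 0.956) and dd_4626 (XIAP, 0.947), and slc10a2 most like dd_2783 (HMCN1, 0.949), dd_6835 (0.923) and dd_3637 (WASHC3, 0.912). Correlations above 0.9 were common for SLC13A3 (1257 transcripts) and SLC16A9 (1232) and few for SLC16A12 (57) and slc10a2 (8).

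Across 23 other settings SLC13A3 and SLC16A9 were called in both intestinal tissues every time. Their log2 fold changes ran from 6.02 to 6.90 (medial) and 5.96 to 6.74 (lateral) for SLC13A3, and from 3.23 to 4.30 and 3.13 to 4.02 for SLC16A9. SLC16A12 stayed positive, at an FDR of 0.0013 to 0.112 in medial and 0.000224 to 0.0442 in lateral intestine by edgeR or DESeq2. Its medial call was lost without medial library 1 or 2, lateral library 2, 3 or 4, or any 1 non-intestinal library, and its lateral call without lateral library 2 or 4 or non-intestinal library 1, 3 or 4. Leaving out any 1 animal, with its 3 libraries, ended both calls of SLC16A12 and the lateral call of slc10a2. For slc10a2 the FDR was 0.0122 to 0.291 in medial and 0.00113 to 0.0848 in lateral intestine by edgeR or DESeq2. It was called in medial intestine in no setting, and its lateral call was lost without medial library 1 or 3, lateral library 2, 3 or 4, or any 1 non-intestinal library.

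**Figure D4:**
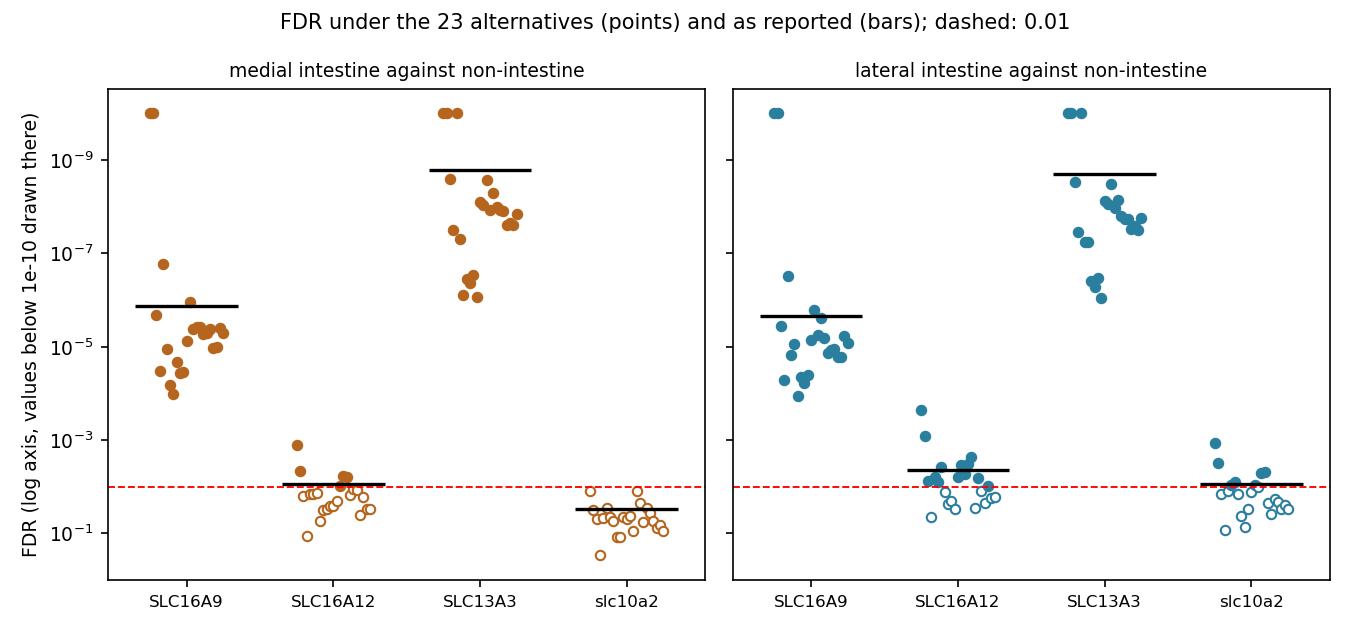
FDR (log axis, smaller upwards) of each transporter under 23 alternative settings (points; filled where called) and as reported (bars), for medial and lateral intestine against non-intestine; the dashed line is 0.01. SLC16A9 and SLC13A3 stay past the line throughout, whereas points of SLC16A12 and of slc10a2 in lateral intestine fall on both sides of it.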

How the data were processed

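RNA from 12 laser-captured samples was prepared with a 3′ mRNA kit, and no molecular identifiers are described, so that duplicate reads cannot be told apart from separate molecules. The authors trimmed reads, aligned them with Bowtie2 2.3.1 to 28069 dd_Smed_v6 transcripts and counted them with SAMtools 1.3. The authors deposited raw read counts per transcript, which were used for all tests. Other deposited values are CPM at TMM-adjusted sizes (a signal, equal to those recomputed here), RPKM (not used), and TPM over 13136 transcripts, used for levels between transcripts. The authors' own log2 fold changes, likelihood ratio scores, p-values and FDR in the deposited table were not used.

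Tests were run with edgeR 4.0.16 and DESeq2 1.42.0 under R 4.3.3. Transcripts reaching 1 CPM in 4 or more of the 12 libraries were fitted in a model with a term for tissue only (TMM, quasi-likelihood test, Benjamini-Hochberg), which was tested on simulated data. The simulated libraries were independent, and a small share of transcripts was raised, in medial intestine only. That run therefore cannot check the scaling between tissues that differ as widely as these. Standard errors are the log2 fold change over the root of the F statistic. Log2 CPM for correlations used a prior count of 2. Libraries with the same number come from the same animal, by the study's design, and their deviations from the tissue means correlated at 0.05 to 0.11 (medial and lateral), −0.01 to 0.10 (medial and non-intestine) and 0.07 to 0.16 (lateral and non-intestine). Named transcripts are the 4 transporters, the listed relatives, partner carriers and markers, and the 3 transcripts most correlated with each transporter, of which 1 is not reported here. The members and lists were chosen with earlier results of these data known. Genome positions and sequences were not analysed here.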

Additional observations from a re-analysis of the deposited data

Results flagged for a closer look

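SLC13A3 in non-intestine of animal 4, at 1.79 CPM, stood apart from the other 3 animals at 2.27 to 2.29 CPM, because its gap to the nearest of them was 0.953 of the group's range, above the critical value of Dixon's test at 95%. Chance flags about 1 in 20 such groups, and 12 groups were examined. The value rests on 53 counts.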

How the results depend on the processing

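The 23 alternatives for each comparison were edgeR's likelihood ratio test, DESeq2, RLE scaling, library size alone, no filter on low counts, the animal as a replicate block, the 2 compared tissues alone, and fits without each animal or each library. For SLC16A12 in medial intestine against non-intestine the log2 fold change was 1.57 with RLE scaling, 1.05 with library size alone, 1.70 without the filter, 1.71 with the replicate block and 1.71 with the 2 tissues alone, all without a call, and 1.53 to 1.94 in the leave-one-out fits. In lateral intestine it was 1.40 with library size alone, uncalled, and 1.54 to 2.25 in the leave-one-out fits. For slc10a2 in lateral intestine it was 1.65 with RLE scaling, 1.13 with library size alone and 1.78 without the filter, all uncalled, and 1.47 to 2.198 in the leave-one-out fits. The members called higher in lateral intestine numbered 2 with library size alone and 2 to 4 in the leave-one-out fits. Between medial and lateral intestine, leaving out an animal or library gave log2 values of −0.078 to 0.36 for SLC16A9, −0.66 to 0.054 for SLC16A12 and −0.19 to 0.33 for SLC13A3, which changed sign without a call. The replicate block changed no other call of a transporter. The cause of these changes was not tested.

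Over all transcripts, library size alone gave 954 higher and 2854 lower calls in medial intestine, against 1676 and 1511 with TMM, and 930 and 2207 in lateral intestine, against 1543 and 1149. RLE scaling gave 1424 and 1711 in medial and 1344 and 1301 in lateral intestine, with median shifts of −0.18 and −0.17. Leave-one-out fits gave 664 to 1721 lower calls in medial and 407 to 1368 in lateral intestine. Between medial and lateral intestine there were 17 higher and 21 lower calls, against 47 and 128 by likelihood ratio, 53 and 120 by DESeq2, 13 lower with the replicate block, 10 lower with the 2 tissues alone, and 6 to 17 higher and 5 to 20 lower in the leave-one-out fits. Depth in non-intestine was low for each transporter, with 40 counts in the lowest library for SLC16A9, 47 for SLC16A12, 53 for SLC13A3 and 49 for slc10a2.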

Other observations

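Non-intestine of animal 4 had the lowest level of its tissue for each of the 4 transporters, at 1.35 CPM for SLC16A9, 1.58 for SLC16A12, 1.79 for SLC13A3 and 1.65 for slc10a2. These come from 1 library and are not separate observations. Its TMM factor, by which counts are divided, was 1.21 and the lowest among the 4 non-intestinal libraries. With library size alone its values were also the lowest of the tissue, at 1.62, 1.91, 2.15 and 1.99 CPM in the same order.

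Summed over the 25 family transcripts listed, transporters included, medial intestine held 1022 ± 104 CPM, lateral intestine 964 ± 142 and non-intestine 255 ± 35.2 (SD, n = 4 each). Within that sum the 4 transporters gave 279.2 ± 74.9, 263 ± 55.6 and 10.2 ± 2.73 CPM in the same order. The transporters and 8 of the relatives were listed because they were enriched in the intestine in these same libraries. The direction of both sums is therefore not independent evidence. Among relatives with no intestine criterion, SLC16A14 (dd_1284) was the most abundant, at 246, 231 and 161 CPM, and was not called.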
